A study of Mus musculus with 10 samples.

Results

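The F-box and ASB genes encode the adaptor subunits of cullin-RING ubiquitin ligases. They were taken as every row of the gene table whose symbol is Fbxo, Fbxl, Fbxw or Asb followed by a number, leaving out Fbxo30, Fbxo32 and Fbxo40, which gave 82 of 18025 genes. Of these, 17 were Asb, 33 Fbxo, 18 Fbxl and 14 Fbxw genes. The filter on low counts passed 64 of the 82, within 12697 tested genes. All values are from messenger RNA sequencing of gastrocnemius, a mostly fast-twitch calf muscle, from wild type mice of the C57BL/6 strain, all listed as 8 weeks old. There were 5 control samples and 5 samples of COPD (chronic obstructive pulmonary disease), which the title of the series describes as modelled by cigarette smoke. The labels give neither sex nor smoke exposure per sample. Nothing in them states that the samples are separate animals, and the p-values below therefore reflect only how these samples vary, which may be technical.

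An F-box protein binds Skp1 through its F-box and joins a substrate to a ligase built on the scaffold Cul1. The Fbxw and Fbxl proteins read substrates through WD40 and leucine-rich repeats, while Fbxo proteins carry other domains. ASB proteins combine ankyrin repeats with a SOCS box, which binds elongins B and C and recruits Cul5. In skeletal muscle such ligases take part in the turnover of structural proteins, and several ASB genes are known for high expression in striated muscle.

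Library totals ran from 14085854 to 17251034 expected counts, and were on average lower in COPD by an amount that a two-sided exact permutation test did not separate from 0 (p = 0.119; the smallest p for 5 against 5 libraries is 0.00794). The adaptor genes together took between 0.240% and 0.323% of the counts of a library. Markers of fast fibres dominated every library: the 12 listed genes summed to between 171463 and 241932 TPM. The 10 slow-fibre markers varied more, from 341 to 1894 TPM in control and from 158 to 697 TPM in COPD, with the highest values in control replicates 1 and 4 and COPD replicate 5 (1894, 1487 and 697 TPM). The 12 macrophage markers summed to between 108 and 187 TPM in control and between 44.3 and 145 TPM in COPD. Of the listed markers of the 9 fibre and cell types, 0 were at 0 counts in all libraries. Y-linked transcripts were present in the 5 controls and COPD replicates 2 and 3 and under 1 CPM in COPD replicates 1, 4 and 5. The part of fibre types, other cells and Y-linked status in the results below was not tested, except where a value without those libraries is given.

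Promoter windows of Asb2, Asb12, Asb14 and Asb16, abundant ASB genes that each hold a motif match, are shown here. Several of these share a motif of muscle transcription factors that the choice of members did not use. The windows are RefSeq's, on GRCm38.p6, from 250 bases before to 50 bases after a listed start. The counts were made on another build (mm9), and which start is used in these muscles was not measured. Windows were matched for 65 of the 82 genes (91 windows in all). The motif of MEF2, a family of muscle transcription factors, occurred in 5 of 22 windows of ASB genes (22.7%), in Asb5, Asb12, Asb14, Asb16 and Asb18. It occurred in 1 of 69 windows of F-box genes (1.45%), in Fbxw26, and in 3.19% of all 32851 windows. Asb18 and Fbxw26 are not abundant, with means of 3.54 and 0.007 TPM. The CArG motif of serum response factor occurred in 1 window each of Asb2, Asb5 and Fbxl22, against 1.63% of all windows. The windows of Asb8, Asb10, Asb11, Asb13 and Asb15, which are also abundant, held neither the MEF2 nor the CArG motif. The E-box CANNTG, the core motif of MyoD-type factors, occurred in 74.7% of the members' windows and 72.3% of all windows. Each motif equals its own reverse complement, so 1 scan covers both strands. These are matches of letters and not measured sites. In the sequences below, capitals mark the match, the MEF2 motif in Asb12, Asb14 and Asb16 and the CArG motif in Asb2.
Asb2: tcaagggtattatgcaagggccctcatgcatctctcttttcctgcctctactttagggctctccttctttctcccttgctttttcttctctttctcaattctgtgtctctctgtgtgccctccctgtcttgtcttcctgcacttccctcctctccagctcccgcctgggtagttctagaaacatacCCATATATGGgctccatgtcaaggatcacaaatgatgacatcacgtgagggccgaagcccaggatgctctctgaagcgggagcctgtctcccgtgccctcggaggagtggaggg
Asb12: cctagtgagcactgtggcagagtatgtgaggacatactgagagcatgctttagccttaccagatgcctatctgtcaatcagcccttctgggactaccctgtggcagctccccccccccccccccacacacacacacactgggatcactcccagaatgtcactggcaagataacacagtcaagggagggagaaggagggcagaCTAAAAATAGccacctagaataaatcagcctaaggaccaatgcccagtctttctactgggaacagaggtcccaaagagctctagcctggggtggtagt
Asb14: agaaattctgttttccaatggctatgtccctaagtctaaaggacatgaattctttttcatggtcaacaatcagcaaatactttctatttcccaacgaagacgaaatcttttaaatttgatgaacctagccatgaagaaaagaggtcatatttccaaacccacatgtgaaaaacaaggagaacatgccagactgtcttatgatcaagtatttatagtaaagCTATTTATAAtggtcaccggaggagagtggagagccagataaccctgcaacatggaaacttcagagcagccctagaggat
Asb16: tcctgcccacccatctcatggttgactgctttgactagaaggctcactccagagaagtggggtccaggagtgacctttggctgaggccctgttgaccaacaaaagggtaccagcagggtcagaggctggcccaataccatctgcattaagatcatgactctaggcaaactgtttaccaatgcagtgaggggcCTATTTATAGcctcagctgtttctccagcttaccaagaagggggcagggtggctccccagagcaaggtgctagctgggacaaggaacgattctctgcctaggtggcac
The Asb2 window lies at chr12:103355952-103356251, minus strand, and its match begins at position -64 relative to the start. The Asb12 window lies at chrX:95478080-95478379, minus strand, with the match at -48. The Asb14 window lies at chr14:26894364-26894663, plus strand, with the match at -30. The Asb16 window lies at chr11:102268501-102268800, plus strand, with the match at -58.

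ASB genes were the most abundant adaptor transcripts of this muscle. Levels between genes are compared in TPM (the share of transcripts, corrected for length), as the mean over all 10 libraries. A mean of at least 10 TPM, called abundant here, was reached by 26 of the 82 genes (31.7%), against 30.2% of all 18025 genes. By family these were 10 of 17 Asb, 8 of 33 Fbxo, 3 of 18 Fbxl and 5 of 14 Fbxw genes. The median gene of the family lay at 17.9 TPM for Asb, 4.79 for Fbxo, 3.52 for Fbxl and 2.44 for Fbxw, with 2.79 TPM for all genes. No other tissue was measured, so these levels do not show enrichment in muscle. At the limit of 10 TPM, Fbxl4 (10.97 ± 3.36 TPM) and Fbxo7 (10.4 ± 1.21 TPM) lay just inside and Fbxl6 (9.82 ± 1.68 TPM) just outside (SD, n = 10).

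Asb2, whose protein is known for targeting filamins, the actin cross-linkers of the Z-disc, stood first at 504 ± 129 TPM (SD, n = 10). It was above Asb5, the next gene, in 10 of 10 libraries. Asb5 and Asb11, whose protein directs the cell death factor BIK to degradation, followed at 208 ± 54.7 and 205 ± 103 TPM. Their order was not resolved, since Asb5 was the higher in 6 of 10 libraries. Asb2, Asb5 and Asb11 together made up 47.4 ± 2.92% of the summed TPM of the 82 genes, and the 17 ASB genes 67.9 ± 2.25% (SD, n = 10).

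**Figure D1:**
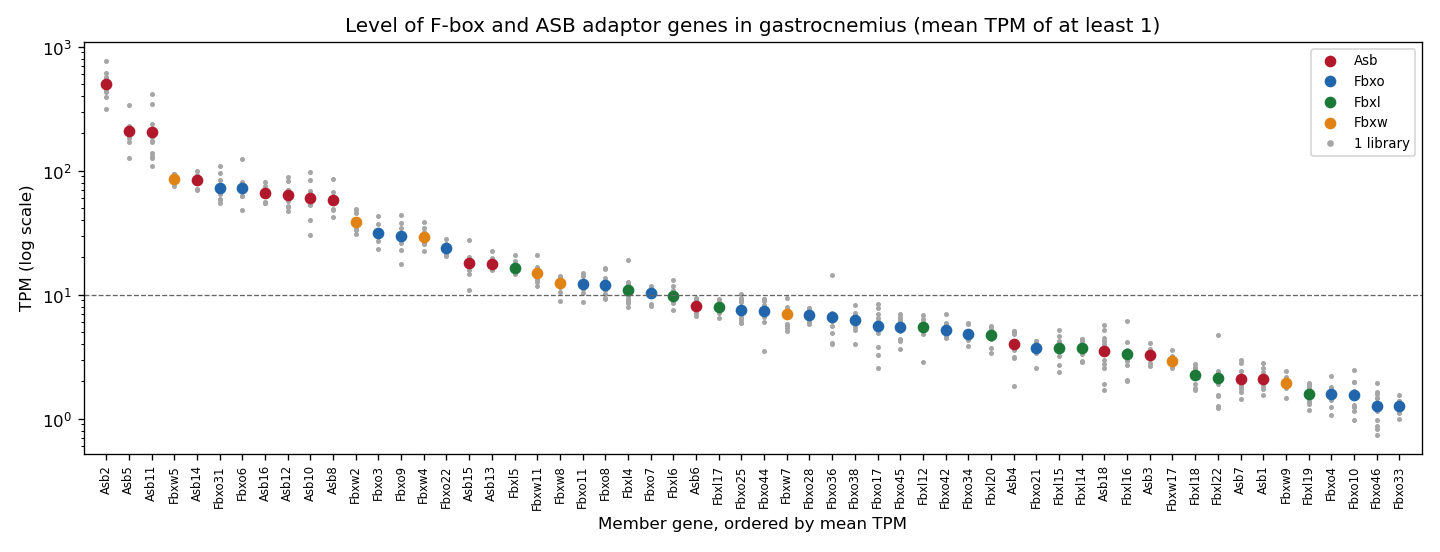
Level of 58 of the 59 adaptor genes with a mean of at least 1 TPM, ordered by mean (x axis), on a log scale of TPM (y axis). Coloured points are means over 10 libraries by family, grey points single libraries, and the dashed line marks 10 TPM. The 3 highest genes, Asb2, Asb5 and Asb11, are all ASB genes.

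A second tier lay between 58.4 and 86.4 TPM and held 8 genes of 3 families. Fbxw5, an adaptor for the centriole protein SASS6, had 86.4 ± 6.14 TPM, and Asb14 had 84.7 ± 9.23 TPM. Fbxo31, which targets cyclin D1, and Fbxo6, which recognises sugar chains on misfolded glycoproteins, lay at 73.0 ± 17.6 and 72.9 ± 20.1 TPM. Asb16, Asb12, Asb10 and Asb8 followed at 66.3 ± 9.17, 64.0 ± 14.02, 60.8 ± 19.5 and 58.4 ± 12.1 TPM (SD, n = 10). Neighbours in this tier changed places between libraries, with the higher gene ahead in 4 to 9 of 10. Asb8 was above the next gene, Fbxw2, in 10 of 10 libraries. For scale, the excluded muscle ligase genes Fbxo40 and Fbxo32 had 100.2 ± 16.8 and 58.6 ± 33.4 TPM.

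The third tier, from 10.4 to 38.9 TPM, held the other 15 abundant genes. Fbxw2 (38.9 ± 6.75 TPM) was above Fbxo3 (31.4 ± 5.45 TPM), an adaptor that targets the F-box protein Fbxl2, in 10 of 10 libraries. Fbxo9, an adaptor for regulators of mTOR-family kinases, and Fbxw4 lay at 29.9 ± 7.46 and 29.3 ± 4.54 TPM, and Fbxo3, Fbxo9 and Fbxw4 were not separated in order. Asb15, linked to muscle growth in animal studies, had 17.9 ± 4.31 TPM. Fbxw11 (beta-TrCP2, an adaptor for beta-catenin) had 14.8 ± 2.59 TPM (SD, n = 10). Fbxl5, the iron-sensing adaptor that targets the iron regulatory protein IRP2, had 16.49 ± 2.014 TPM. Fbxo22, Asb13, Fbxw8 and Fbxo11 also lay in the tier, at 23.66, 17.66, 12.4 and 12.31 TPM. Below the limit, Fbxw7, which targets cyclin E, MYC and JUN, had 6.93 ± 1.396 TPM and Fbxo21 had 3.73 ± 0.488 TPM (SD, n = 10).

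The low-count filter left out 18 genes, with 1 to 76 expected counts summed over the 10 libraries. Fbxl21, an adaptor that acts on the Z-disc protein telethonin, had 14 counts in all and at most 3 in a library, with 0 in 2 libraries. Fbxo2, a relative of Fbxo6 with Fbxo44 lying between them, had 48 counts in all, although Fbxo6 had 8546. At most 8 counts over all libraries were found for 8 genes, among them Asb17 and the clustered genes Fbxw21, Fbxw25, Fbxw26 and Fbxw27, close copies of each other among which reads may be split. The 18 genes were left out of the comparison given below and entered only some of the alternatives.

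The comparison of COPD with control asked whether adaptor genes differ in the muscle of the disease model. Of the 64 tested genes, 0 were higher and 0 lower past the threshold of 0.05 for the adjusted p (quasi-likelihood fit in edgeR, Benjamini-Hochberg over all 12697 genes). The shares of all tested genes called were 0.0551% higher and 0.00788% lower. DESeq2 called 0 of the 64 adaptor genes to which it gave an adjusted p, while it called 266 higher and 154 lower of 17903 genes. At an unadjusted p under 0.05 there were 5 of 64 (7.81%), against 14.6% of all tested genes: 1 was higher (1.56%, all genes 7.94%) and 4 were lower (6.25%, all genes 6.64%). The groups did not overlap for 0 genes in either direction, against 1.29% of all tested genes higher and 1.55% lower. The split of 1 higher and 4 lower was the same with RLE and upper-quartile scaling. With library size alone, 0 were higher and 11 lower, while the median of all genes moved to -0.17. In that fit 17.2% of the adaptor genes and 21.9% of all tested genes had such a p in either direction. With TMM the median log2 fold change was -0.01 for the 64 adaptor genes and -0.01 for all tested genes.

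The intervals of the main fit were also counted. For 59 of the 64 genes the 95% interval of the fold change lay inside 2-fold in either direction, and for 43 inside 1.5-fold. The shares of all tested genes were not computed. The main fit had no term for Y-linked transcripts, which were present in all controls but only in COPD replicates 2 and 3. For Asb2, Asb5 and Asb11 its log2 fold changes were 0.53, -0.22 and -0.66. With such a term they were 0.80, -0.09 and -0.94. The 5 genes whose interval reached past 2-fold were Asb10, Asb11, Asb18, Fbxl22 and Fbxo5. By family, the median log2 fold change was -0.03 for 16 tested Asb, -0.07 for 24 Fbxo, 0.08 for 16 Fbxl and 0.03 for 8 Fbxw genes.

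**Figure D2:**
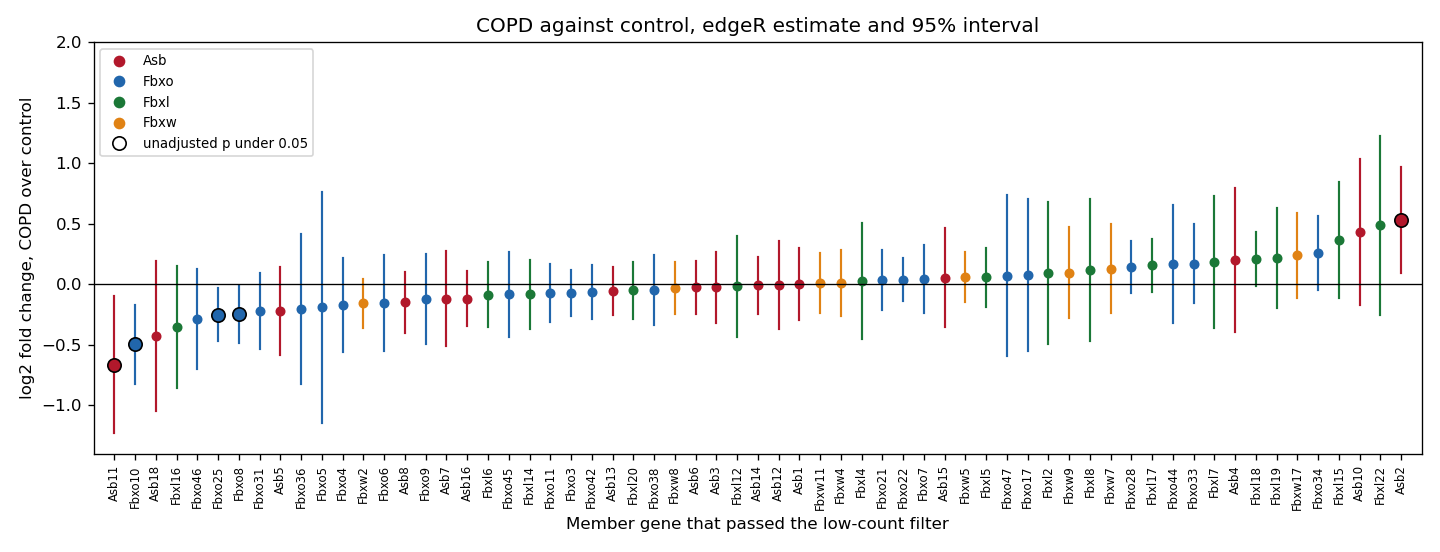
The log2 fold change of COPD over control (y axis) with its 95% interval (vertical lines) for 63 of the 64 tested adaptor genes, ordered by value (x axis) and coloured by family. Large outlined points mark the 5 genes with an unadjusted p under 0.05: Asb11, Fbxo10, Fbxo25, Fbxo8 and Asb2, of which 0 passed after adjustment.

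Values within a gene are given below in CPM (read counts scaled to a fixed library total, with TMM factors). Asb2 was the 1 gene with an unadjusted p under 0.05 in the higher direction. It had 630, 706, 732, 453 and 788 CPM in control replicates 1 to 5 and 804, 1377, 935, 1019 and 640 CPM in COPD replicates 1 to 5. COPD replicates 1 to 4 lay above all controls and COPD replicate 5 within them, so the groups overlapped. The means were 662 ± 130 and 955 ± 276 CPM (SD, n = 5 each), which as a log2 fold change was 0.53 ± 0.20 (SE; 95% interval 0.09 to 0.97; edgeR adjusted p = 0.262). Without control replicate 4, or without COPD replicate 2, Asb2 no longer had an unadjusted p under 0.05. The same held with library size alone and in limma, where on log2(TPM + 1) the estimate was 0.32 (limma adjusted p = 0.274). Over the libraries with Y-linked transcripts the estimate was 0.82 (edgeR adjusted p = 0.0759), and with a term for them 0.80 (edgeR adjusted p = 0.108). Without COPD replicate 5 the estimate was 0.64 (edgeR adjusted p = 0.0854).

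Asb11 went the other way. It had 114, 284, 163, 339 and 193 CPM in control replicates 1 to 5 and 132, 127, 101, 173 and 157 CPM in COPD replicates 1 to 5. Control replicates 2 and 4 were the high libraries, and control replicate 1 lay below 4 of the 5 COPD libraries. The means were 219 ± 91.3 and 138 ± 27.9 CPM (SD, n = 5 each), which as a log2 fold change was -0.66 ± 0.26 (SE; 95% interval -1.23 to -0.10; edgeR adjusted p = 0.272). The unadjusted p of Asb11 was above 0.05 without control replicate 2, without control replicate 4 and without COPD replicate 3. It was also above 0.05 with voom weights, where the estimate was -0.53 (voom adjusted p = 0.298). Over the libraries with Y-linked transcripts the estimate was -0.93 (edgeR adjusted p = 0.210), and with a term for them -0.94 (edgeR adjusted p = 0.196).

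The ratio of Asb2 to Asb11, looked at after their values were seen, shows the same libraries. In TPM it was 3.09, 1.398, 2.51, 0.756 and 2.30 in control replicates 1 to 5 and 3.51, 6.04, 5.25, 3.31 and 2.296 in COPD replicates 1 to 5. Control replicate 4 was the only library of the 10 with more Asb11 than Asb2. COPD replicate 5 had the lowest ratio of its group, below 3 of the controls.

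Fbxo10, an adaptor known for targeting the survival protein BCL2, had the smallest p of the 64 genes. It had 5.08, 3.96, 4.92, 5.10 and 6.13 CPM in control replicates 1 to 5 and 3.18, 3.99, 3.68, 3.32 and 3.67 CPM in COPD replicates 1 to 5. The groups met only at control replicate 2 and COPD replicate 2. The means were 5.04 ± 0.770 and 3.57 ± 0.323 CPM (SD, n = 5 each), which as a log2 fold change was -0.50 ± 0.15 (SE; edgeR adjusted p = 0.167). It is a gene of low level, with 690 counts over the 10 libraries. Over the libraries with Y-linked transcripts, and with a term for them, Fbxo10 no longer had an unadjusted p under 0.05.

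Fbxo25, the closest relative of the atrophy ligase Fbxo32, had 11.96, 11.2, 9.97, 11.1 and 12.3 CPM in control replicates 1 to 5 and 9.16, 9.32, 9.92, 9.09 and 10.04 CPM in COPD replicates 1 to 5. Control replicate 3 was the 1 control inside the COPD range. The log2 fold change was -0.25 ± 0.10 (SE, edgeR adjusted p = 0.274). Fbxo25 too had no unadjusted p under 0.05 in the 2 fits that took account of Y-linked transcripts. Fbxo8, which carries a Sec7 domain and acts on a small GTPase of the ARF family, had 26.6, 24.9, 24.6, 31.1 and 30.8 CPM in control and 27.1, 22.2, 20.95, 22.1 and 24.0 CPM in COPD replicates 1 to 5. COPD replicate 1 lay above 3 controls. The log2 fold change was -0.25 ± 0.11 (SE, edgeR adjusted p = 0.317).

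**Figure D3:**
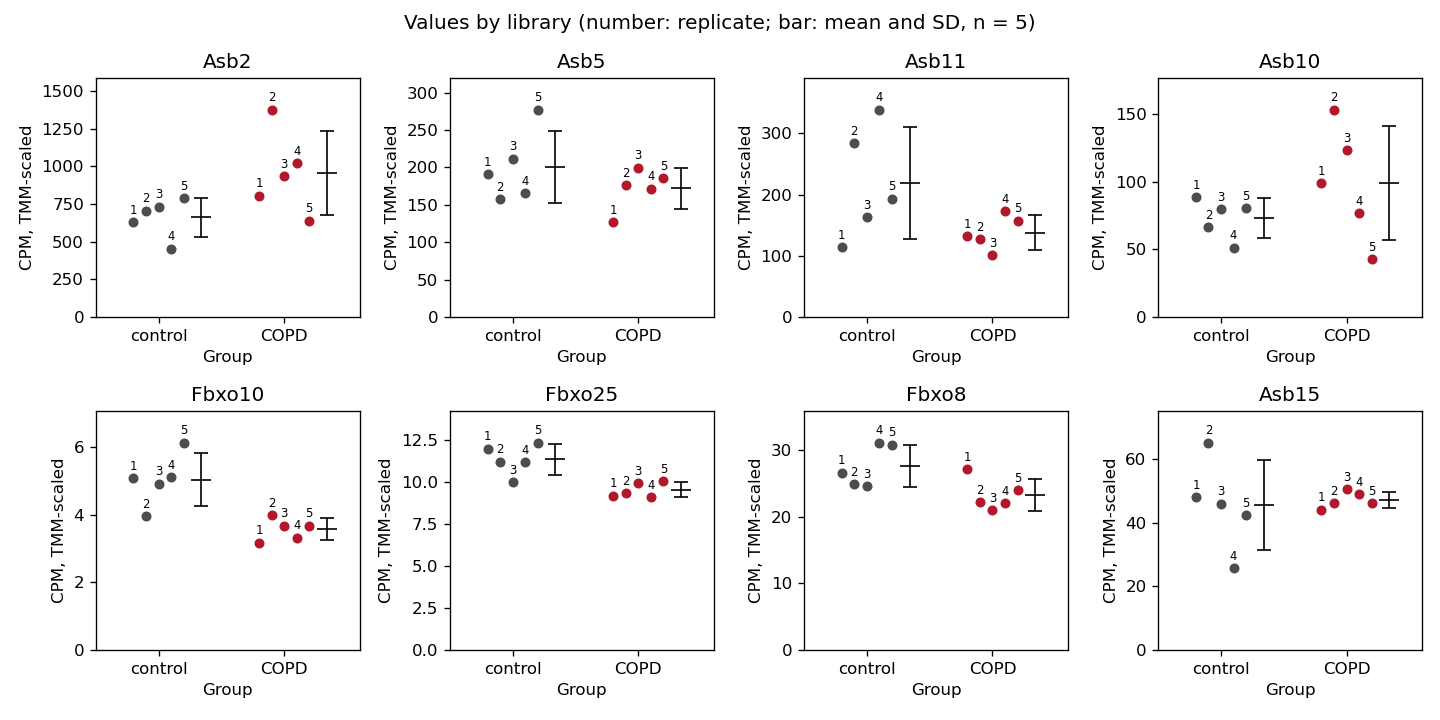
CPM (TMM-scaled, y axis from 0) of 8 adaptor genes in each library, by group (x axis), with the replicate number above each point and the mean and SD beside it (n = 5). The groups overlap in all 8 panels; COPD replicate 5 lies among the controls for Asb2 and lowest of all libraries for Asb10.

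Asb10 varied most among the COPD libraries of the abundant genes. It had 88.3, 66.4, 79.6, 51.2 and 80.5 CPM in control replicates 1 to 5 and 98.95, 153, 123, 76.5 and 42.7 CPM in COPD replicates 1 to 5. The highest and the lowest library of all 10 were thus both COPD libraries. The log2 fold change was 0.43 ± 0.28 (SE, edgeR adjusted p = 0.508). Over the libraries with Y-linked transcripts, that is, the 5 controls and only COPD replicates 2 and 3, it was 0.93 (edgeR adjusted p = 0.0360). That fit called 336 higher and 152 lower of 13195 genes, so that 1 of 65 adaptor genes (1.54%) was called higher against 2.55% of all genes. With a term for Y-linked transcripts over all 10 libraries it was 0.92 (edgeR adjusted p = 0.112). It was 0.22 without COPD replicate 2 (edgeR adjusted p = 0.786) and 0.63 without COPD replicate 5 (edgeR adjusted p = 0.119).

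Among the other abundant genes with an estimate larger than its standard error, 5 lay below 0 and did not pass. Asb5 averaged 201 ± 48.0 CPM over controls and 172 ± 27.3 CPM over the COPD libraries (log2 fold change -0.22 ± 0.17, 95% interval -0.59 to 0.14). Fbxo31 was at 209 ± 39.7 and 179 ± 24.9 CPM (-0.22 ± 0.14). Asb8, Asb16 and Fbxw2 had log2 fold changes of -0.15 ± 0.12, -0.12 ± 0.10 and -0.16 ± 0.09 (SE, n = 5 each; edgeR adjusted p from 0.464 to 0.651 over these 5 genes). Without control replicate 5 the estimates of Asb5 and Asb8 were -0.08 and -0.05, and without COPD replicate 1 that of Asb5 was -0.13. The estimate of Fbxo31 was -0.12 without control replicate 2, and that of Asb16 was -0.19 without COPD replicate 1 and -0.08 without COPD replicate 3.

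The other 14 named and tested genes had estimates within 1 standard error of 0, among them Fbxw5, Asb14, Fbxo6, Asb12, Fbxo3, Fbxo9, Fbxw4, Asb15, Fbxw11, Fbxl4, Fbxo7, Fbxw7 and Fbxo21. Their log2 fold changes ran from -0.15 to 0.13, and the 95% intervals of all 14 lay between -0.55 (Fbxo6) and 0.51 (Fbxl4). They include adaptors of mitophagy (Fbxl4 and Fbxo7) and of MYC and JUN (Fbxw7). An unpassed threshold does not show that they are equal. A difference of 1.5-fold or more lay outside the interval for all 14, but these genes were grouped by their estimates near 0. Intervals around 0 follow in part from that choice.

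Some genes varied between libraries of the same group more than between groups. The coefficient of variation over 10 libraries ran from 7.11% for Fbxw5 to 50.2% for Asb11 among the 26 abundant genes, with a median of 17.4% (TPM). Asb15 lay at 25.7 CPM in control replicate 4 and at 65.3 CPM in control replicate 2, while the 5 COPD libraries lay between 44.2 and 50.7 CPM. Fbxo6 lay at 84.3 CPM in control replicate 4 and between 37.2 and 59.9 CPM in the other 9 libraries. Counting departures of over 0.5 on the log2 scale from a gene's own mean, control replicate 4 held 6 of the 26 genes, and the other libraries 0 to 3. In control replicate 4 these were Asb2, Asb10, Asb15 and Fbxl4 on the low side and Asb11 and Fbxo6 on the high side. That library was also among the 2 with the highest slow-fibre markers and had the lowest sum of fast-fibre markers. The part of fibre type in these departures was not tested. The share of all genes that departed in that library was not computed, so the departures may not be particular to adaptor genes.

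**Figure D4:**
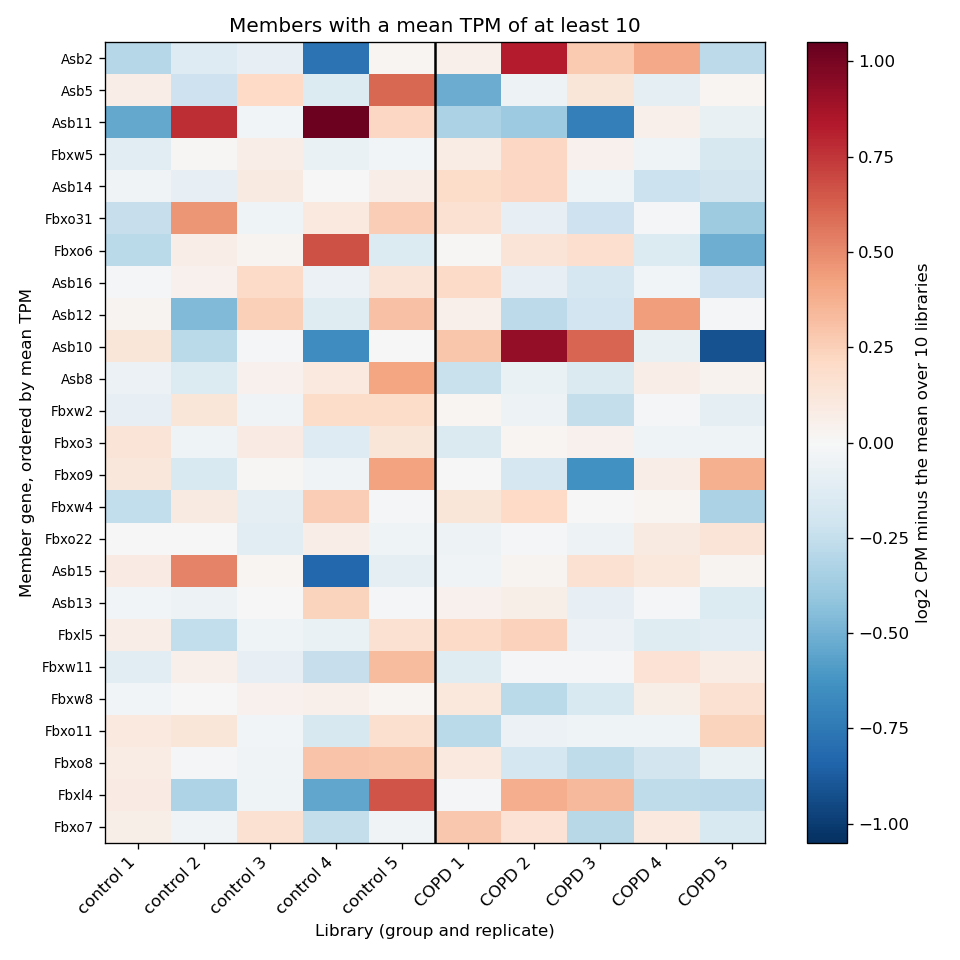
Log2 CPM of 25 of the 26 abundant adaptor genes (rows, ordered by mean TPM) in the 10 libraries (columns, controls left of the line), each minus the gene's mean over all libraries. Control replicate 4 departs by over 0.5 in 6 genes, and the rows of Asb2, Asb11, Asb10 and Asb15 hold the widest departures.

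The summed level of the families was also compared as a description. Summed TPM of the 17 ASB genes was 1365 ± 166 in control and 1254 ± 167 in COPD, and that of the 65 F-box genes 673 ± 68.2 and 562 ± 14.5 (SD, n = 5 each). F-box sums ran from 575 to 738 TPM in control and from 542.8 to 582.1 TPM in COPD, so that they overlapped at control replicate 3. The log2 ratio of the group means was -0.12 for ASB and -0.26 for F-box genes. On log2(TPM + 1), the median difference of the 12281 genes with a mean of at least 0.5 TPM was -0.18. That of the 63 adaptor genes among them was -0.20. Without this filter the medians were -0.10 for 18020 genes and -0.14 for the 82 adaptor genes. The part of such a general shift in the differences of the sums was not tested.

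**Figure D5:**
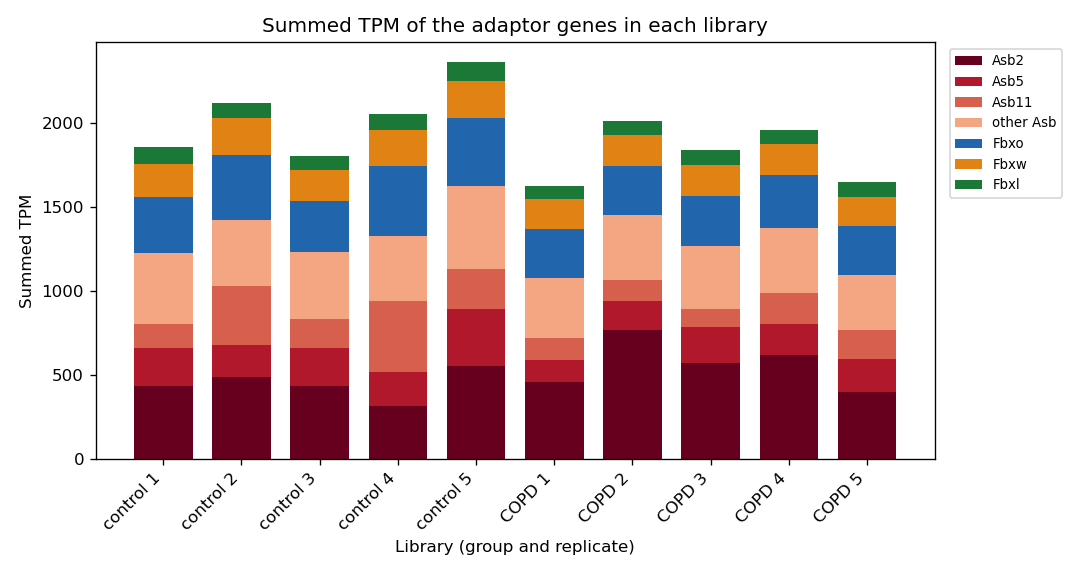
Summed TPM (y axis, from 0) of the 82 adaptor genes in each of the 10 libraries (x axis), stacked by the 3 most abundant genes, the other ASB genes and the F-box families. The ASB genes make up 64.6% to 72.2% of each bar, and the Asb2 segment is widest in COPD replicate 2.

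Of 39 tested genes of the cullin-RING core (cullins, RING proteins, elongins, the neddylation enzymes and the COP9 signalosome), 0 passed the adjusted threshold, and at an unadjusted p under 0.05 1 was higher and 4 were lower (5 of 39, against 14.6% of all tested genes), with a median log2 fold change of 0.02. Named for their level after values were seen, Elob (elongin B) was at 759 TPM and the ubiquitin-conjugating enzyme gene Cdc34 at 485 TPM. The smallest p values were those of Ube2r2, the relative of Cdc34 (log2 fold change 0.46 ± 0.13, edgeR adjusted p = 0.136, DESeq2 adjusted p = 0.0237), Nae1, a subunit of the NEDD8-activating enzyme (-0.30 ± 0.09, edgeR adjusted p = 0.178), Ube2d3 (-0.30 ± 0.12) and Cops4 (-0.30 ± 0.12). The F-box scaffold gene Cul1 averaged 87.3 ± 7.57 CPM over controls and 74.4 ± 7.25 CPM over the COPD libraries (SD, n = 5 each; log2 fold change -0.23 ± 0.10, edgeR adjusted p = 0.309).

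Adaptors with other gene names gave 0 calls in the edgeR comparison. The 7 F-box genes outside the naming scheme were Skp2, Btrc, Ccnf, Kdm2a, Kdm2b, Lrrc29 and Ect2l. Of these, 1 was lower at an unadjusted p under 0.05, against 6.64% of all tested genes. This was Lrrc29, which averaged 1.56 ± 0.311 CPM over controls and 0.703 ± 0.376 CPM over the COPD libraries (SD). It is a gene of low level, at 0.222 CPM in COPD replicate 2. Its log2 fold change was -1.13 ± 0.35 (SE, edgeR adjusted p = 0.177). With a term for Y-linked transcripts it was -2.21 (edgeR adjusted p = 0.0279). Of 15 tested SOCS-box genes other than ASB, 2 were higher at an unadjusted p under 0.05, against 7.94% of all tested genes. Wsb1, a SOCS-box adaptor with WD40 repeats, was at 14.4 ± 2.22 and 21.4 ± 2.82 CPM (SD, n = 5 each; log2 fold change 0.57 ± 0.13, edgeR adjusted p = 0.0973, DESeq2 adjusted p = 0.00734). Spsb1 had a log2 fold change of 0.80 ± 0.28 (edgeR adjusted p = 0.232).

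Messenger RNA of known targets was read only as RNA, since protein was not measured. Of 11 tested target genes, 0 passed the adjusted threshold and 1, Jun, had an unadjusted p under 0.05, against 14.6% of all tested genes (log2 fold change 0.46 ± 0.15, edgeR adjusted p = 0.202). Named for their level after values were seen, the Z-disc gene Tcap (telethonin) and the intermediate filament gene Des were at 4754 and 3090 TPM.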

How the data were processed

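Messenger RNA of 10 gastrocnemius samples was profiled, and groups and replicate numbers came from the sample titles. The authors deposited expected counts per gene (30.7% of values not whole) and TPM for the same 18025 genes; per the submitters' processing notes, which give no role or order, the build was mm9 and the tools included RSEM 1.2.12, HISAT2 2.0.4, DESeq2 1.4.5 and Bowtie2 2.2.5. For strand use in counting, the sources used here give nothing. In the GRCm38 annotation (GENCODE M21), exons of 11 of the 82 adaptor genes overlap a gene of the other strand, Asb5 and Fbxo3 among the genes described, and without strand the reads of such a pair cannot be told apart.

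Expected counts were rounded, filtered with edgeR's filterByExpr, scaled by TMM and tested across all genes with edgeR 4.0.16 (R 4.3.3; glmQLFit, glmQLFTest, Benjamini-Hochberg, threshold 0.05). A standard error is the size of the log2 fold change over the square root of F. Before TMM, library totals make 1 CPM stand for 14.1 to 17.3 counts. The TMM factors, from 0.915 in COPD replicate 2 to 1.135 in control replicate 4, multiply this. The procedure was tested on simulated data. Named were the 15 genes of highest mean TPM, up to 12 per direction with an unadjusted p under 0.05 and at least 1 CPM, 13 chosen for a known role, and up to 4 per pathway list. After values were seen, single fold changes of adaptor genes were limited to those whose estimate exceeded its standard error. The counts cover all members, but 1 gene is not reported here by name or drawn. The members and lists were chosen with earlier results of these data known. Same-numbered samples did not deviate together (r from -0.14 to 0.04), and the main fit did not pair them. A low r cannot exclude a pairing, and the labels used here do not state one. Alternatives were DESeq2 1.42.0, limma 3.58.1 on log2(TPM + 1) and log2(TPM + 0.1), voom weights, other scalings and filters, a replicate block, Y-linked status and leaving out each library. They were run for the 9 pathway genes given a fold change after the values were seen.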

Additional observations from a re-analysis of the deposited data

How the results depend on the processing

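The count of adaptor genes past the adjusted threshold was 0 in both directions in every alternative run except over the libraries with Y-linked transcripts, where 1 was higher (Asb10; 1.54% of the adaptor genes, against 2.55% of all genes). At an unadjusted p under 0.05, 1 was higher (1.56%, all genes 7.94%) and 4 were lower (6.25%, all genes 6.64%). Scaling by library size alone gave 0 higher and 11 lower, and limma gave 0 higher with 14 lower on log2(TPM + 1), 14 lower on log2(TPM + 0.1) and 15 lower on log2(TPM + 1) without a filter. In these the median of all tested genes was -0.17, -0.18, -0.21 and -0.10. Such a p in either direction was found for 17.2%, 22.2%, 22.2% and 18.3% of the adaptor genes. The shares of all tested genes were 21.9%, 26.1%, 26.0% and 20.4%, and were not computed by direction. Voom with sample weights gave 2 higher; over the libraries with Y-linked transcripts 4 were higher, and with a term for them 3. In these fits 7.81%, 12.3% and 10.9% of the adaptor genes had such a p in either direction, against 18.5%, 20.4% and 18.0% of all genes. With the replicate number as a block, 2 were lower and 0 passed after adjustment. In that fit 4.69% of the adaptor genes had such a p, against 13.1% of all genes. Leaving out 1 library at a time gave 0 to 3 higher and 2 to 4 lower. The higher count was 0 without control replicate 4 or COPD replicate 2, 2 without control replicate 5 and 3 without COPD replicate 5. The lower count was 2 without control replicates 1 or 5 or COPD replicates 3 or 4. Across these fits 4.69% to 10.9% of the adaptor genes had such a p, against 11.1% to 20.8% of all genes. Without COPD replicate 5 the shares were 10.9% and 20.8%. Genes whose groups did not overlap were 2 lower with upper-quartile scaling, 3 lower with library size alone, and 0 to 1 in each direction when 1 library was left out. The shares of all tested genes were not computed for these settings, so these counts cannot be set against them. The cause of these changes was not tested.

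The sign of the fold change held for the 11 adaptor genes given one, under all 23 alternatives, and the adjusted p ranged from 0.0759 to 0.474 for Asb2, 0.121 to 0.475 for Asb11 and 0.0690 to 0.339 for Fbxo10. The same alternatives, added for 9 pathway genes after their values were seen, kept the sign throughout, and 6 values passed the adjusted threshold. These were Ube2r2 with DESeq2 (0.0237) and without COPD replicate 5 (0.0380), Wsb1 with DESeq2 (0.00734) and over the libraries with Y-linked transcripts (0.0440), and Lrrc29 over those libraries (0.0300) and with a term for them (0.0279). With a minimum of 5 TPM in place of 10, 39 adaptor genes counted as abundant in place of 26. The 18 genes under the low-count filter, with few counts, entered only some of the alternatives, mainly those without it.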

Other observations

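Among genes of lower level not taken by the naming rule, and looked at because of their values, single libraries stood apart. Fbxl22, an adaptor known from the Z-disc of striated muscle, lay at 11.4 CPM in COPD replicate 5 and between 2.54 and 6.42 CPM in the other 9 libraries. Fbxo44, the neighbour of Fbxo6, lay at 3.43 CPM in COPD replicate 5 and between 7.61 and 9.26 CPM in the other COPD libraries, against 5.76 to 7.63 CPM in control. Fbxo36 lay at 6.88 CPM in control replicate 4 and between 2.33 and 4.36 CPM elsewhere. Fbxo17 ranged from 2.85 CPM in COPD replicate 4 to 8.89 CPM in COPD replicate 3, and its neighbour and relative Fbxo27 had 76 counts in all.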
